A study of Arabidopsis thaliana with 12 samples.

Results

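Messenger RNA of 5 heat shock transcription factors of class A, HSFA2 (AT2G26150), HSFA3 (AT5G03720), HSFA6B (AT3G22830), HSFA7A (AT3G51910) and HSFA7B (AT3G63350), was followed in Arabidopsis thaliana seedlings. They were chosen by locus identifier, with 1 reference sequence each, and are 5 of the 21 heat shock factors and of 33602 gene loci in the count files. All samples were whole seedlings of the wild-type accession Col-0, raised in shaken liquid culture in mineral water. The control group was 6 days old and unheated, and the priming group of the same age was kept at 38 °C for 30 min. At 7 days the heat shock group met 43 °C for 30 min with no earlier heat. The primed heat shock group was first kept at 38 °C for 2 h, then returned to 21 °C for 22 h, and then given that 43 °C step. Times are as each sample's label has them, and the shared treatment protocol instead has 2 h for both temperatures. No library was taken at the end of the recovery, so the levels just before the second heat were not measured here. Each group had 3 libraries of total RNA depleted of ribosomal RNA, and a replicate number stands for 1 harvest date shared by the groups.

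Heat shock factors bind heat shock elements, inverted repeats of a short GAA unit, in the promoters of chaperone genes. Class A members carry activation domains. HSFA1 proteins are present before stress and are held inactive by chaperones, and they switch on the genes of other class A factors when heat sets them free. HSFA2 then forms complexes with HSFA1 and other factors and prolongs the response. HSFA3 is known as a target of the dehydration factor DREB2A and, with HSFA2, as a factor in the memory of past heat. HSFA6B is known for its link to abscisic acid, and HSFA7A and HSFA7B are factors whose transcripts accumulate in heat.

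The sequences before HSFA2, HSFA7A and HSFA7B are shown because these are the members with the largest rises in heat and because each holds a complete triple heat shock element. The search used the letters GAANNTTC and TTCNNGAA for pairs of units, and for the triple element GAANNTTC with NNGAA directly after it, on both strands in the 250 bases before the annotated gene start. A triple element contains 1 pair of each kind. All coordinates and bases are from RefSeq's assembly TAIR10.1, whose gene models were used for the start sites, on the plus strand, 5′ to 3′. Capitals mark pairs and triples of units. For HSFA2 the stretch begins where the neighbouring gene ends.
HSFA2, chr2:11135466-11135623: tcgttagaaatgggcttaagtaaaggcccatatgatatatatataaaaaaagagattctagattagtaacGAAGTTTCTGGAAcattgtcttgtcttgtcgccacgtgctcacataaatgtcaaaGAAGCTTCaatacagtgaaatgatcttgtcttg
HSFA7A, chr3:19264891-19265140: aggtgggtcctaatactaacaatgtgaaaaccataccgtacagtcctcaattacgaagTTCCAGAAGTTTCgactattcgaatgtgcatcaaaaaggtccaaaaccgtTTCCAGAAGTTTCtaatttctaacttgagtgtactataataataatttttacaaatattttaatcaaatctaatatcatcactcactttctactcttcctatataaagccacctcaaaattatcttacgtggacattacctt
HSFA7B, chr3:23398986-23399235: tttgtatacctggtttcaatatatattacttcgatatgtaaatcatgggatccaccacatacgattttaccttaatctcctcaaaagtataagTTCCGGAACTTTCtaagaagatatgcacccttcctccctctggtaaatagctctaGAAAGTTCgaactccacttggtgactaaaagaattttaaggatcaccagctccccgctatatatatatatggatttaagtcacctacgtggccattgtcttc
HSFA2 held 1 triple element, from base -88 to base -76 before the gene start, and a further pair from -33 to -26. HSFA7A held 2 triples, from -192 to -180 and from -142 to -130. HSFA7B held 1 triple, from -157 to -145, and a further pair from -102 to -95. Of the 27443 windows of this length before protein-coding genes, 106 (0.386%) held a triple element. Pairs of the GAANNTTC form were in 9.55% and those of the TTCNNGAA form in 7.68% of these windows. Neither HSFA3 nor HSFA6B had a triple or a pair in this window, which says only that these letters are not there. For HSFA3 the window overlaps the neighbouring gene CTR1 for all but 33 bases, and the window before its second annotated transcript start held no match either. Among the 16 other heat shock factors none had the triple element, while HSFA1E had 1 pair and HSFA4A had 1 pair. The core ACGTG of the abscisic acid response element was present before HSFA2, HSFA7A and HSFA7B, as in 22.9% of all windows. The core CCGAC of the dehydration element, to which DREB2A binds, was in 3285 of the windows and before none of the 5 genes.

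**Figure D1:**
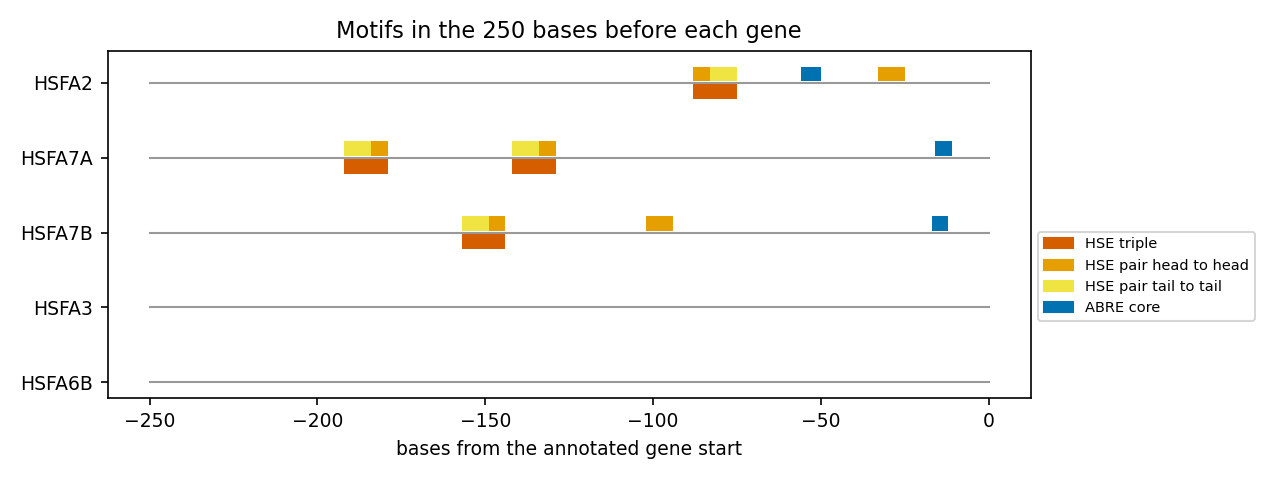
Position of motif matches in the 250 bases before the annotated start of each gene, with bases from the start on the horizontal axis and 1 line per gene; triple heat shock elements are drawn under the line and pairs and the abscisic acid core above it. HSFA2 has 1 triple, HSFA7A has 2, HSFA7B has 1, and no match lies before HSFA3 or HSFA6B.

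Libraries held 72075150 to 152118790 aligned reads. Levels are CPM, read counts scaled to library size with TMM factors, fold changes are log2 ± SE, and a call is an adjusted p under 0.05 in edgeR's quasi-likelihood test over 26161 sequences. With no scaling factor the median log2 change of all sequences moved from -0.02 to -0.88 in priming against control and from 0.01 to -0.48 in heat shock against control, so changes are relative to the typical sequence. Markers of green tissue summed to 4830 to 9305 CPM and root markers to 324 to 705 CPM over the libraries. Those of seed summed to 16.7 to 62.9 CPM, with at most 1 of 10 at 0 in any group. The seed sum was 22.3 to 56.5 CPM in controls and 43.5 to 62.9 CPM in priming. In heat shock the seed sum was 16.7 to 23.1 CPM, and in primed heat shock 18.6 to 26.3 CPM. The green tissue sum was lowest in controls, at 4830 to 5443 CPM, and lay above every control in priming (6903 to 9305), heat shock (6438 to 7309) and primed heat shock (7416 to 8559), with every primed above every unprimed heat shock library. Its genes differed, since in primed against unprimed heat shock RCA and RBCS1A were higher (log2 0.55 and 0.49) and LHCB1.3 lower (-0.47). In heat shock against control RBCS1A was at 0.04. The root sum was at 444 to 627 CPM in controls, 324 to 383 in priming, 503 to 549 in heat shock and 686 to 705 in primed heat shock, again higher in every primed than in every unprimed heat shock library. There it followed PYK10 (log2 0.53), while each other root marker was lower, at -0.62 to -1.16. The part of these tissues in the results was not tested, and fewer cells of a type and less RNA per cell cannot be told apart in bulk seedlings.

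HSFA2, the factor that prolongs the heat response, lies on chromosome 2 from base 11135624 to 11137792. Its level in the controls was 1.35, 1.37 and 1.49 CPM. After 38 °C it was 1505, 1644 and 1658 CPM. After 43 °C it was 169, 214 and 185 CPM without priming, and 51.7, 56.5 and 73.4 CPM with it. All 4 groups were apart, in the order priming, heat shock, primed heat shock and control. The rise over control was 10.15 ± 0.20 on the log2 scale after priming (edgeR adjusted p = 7.64e-15) and 7.07 ± 0.17 after heat shock (edgeR adjusted p = 8.61e-13). In primed heat shock HSFA2 was still 43.0-fold above control but 3.13-fold below unprimed heat shock (log2 -1.64 ± 0.13, edgeR adjusted p = 4.55e-07). That difference was -1.71, -1.92 and -1.33 on harvest dates 1 to 3.

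HSFA7A (chromosome 3, 19265141 to 19266806) was the member with the highest level at rest. Its controls held 13.0, 13.6 and 15.1 CPM. Priming gave 736, 828 and 750 CPM. Heat shock gave 195, 275 and 248 CPM, and primed heat shock 105, 107 and 133 CPM. The groups kept the order seen for HSFA2 and did not overlap. The log2 rise was 5.79 ± 0.16 in priming (edgeR adjusted p = 1.95e-13) and 4.10 ± 0.15 in heat shock (edgeR adjusted p = 3.33e-11). Primed heat shock stood 2.08-fold below heat shock (log2 -1.06 ± 0.13, edgeR adjusted p = 3.67e-05), with -0.89, -1.37 and -0.90 on the 3 dates.

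HSFA7B (chromosome 3, 23399236 to 23400812) had another order. It stood at 0.242, 0.263 and 0.307 CPM in controls, on 32 to 55 reads. At 38 °C it reached 170, 183 and 157 CPM, a log2 rise of 9.28 ± 0.16 (edgeR adjusted p = 6.46e-15). At 43 °C without priming it came to only 2.02, 2.48 and 2.09 CPM, an 8.04-fold rise (log2 3.01 ± 0.15, edgeR adjusted p = 8.59e-10). With priming it came to 6.22, 5.85 and 7.77 CPM. Every primed heat shock library thus lay above every heat shock library. The difference was 3.01-fold (log2 1.59 ± 0.12, edgeR adjusted p = 2.25e-07), with 1.61, 1.23 and 1.89 on the 3 dates. Of the members, HSFA7B was the 1 that rose between unprimed and primed heat shock, where HSFA2 and HSFA7A fell. Unprimed heat shock left it 77.5-fold below priming, against 8.46-fold for HSFA2 and 3.23-fold for HSFA7A.

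**Figure D2:**
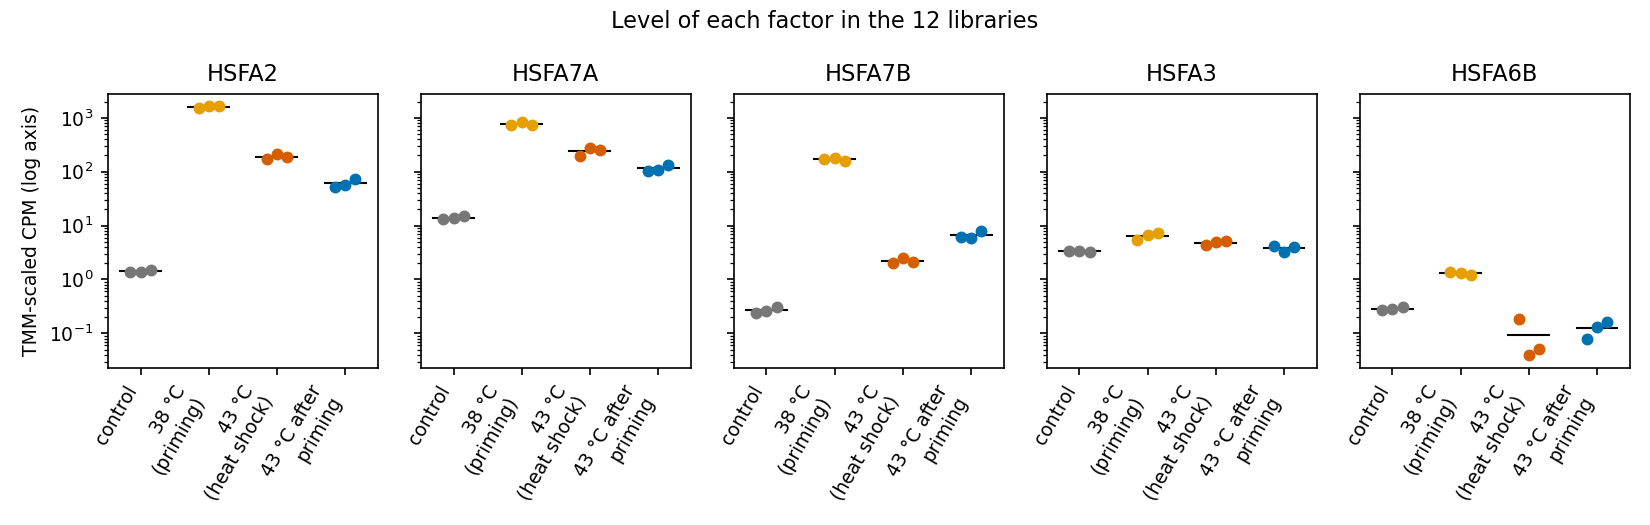
TMM-scaled CPM on a log axis in each of the 12 libraries, 1 panel per gene, with points for libraries and a line at the mean of 3. HSFA2 and HSFA7A are ordered priming, heat shock, primed heat shock and control, while HSFA7B is higher in primed heat shock (5.85 to 7.77 CPM) than in heat shock (2.02 to 2.48 CPM).

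HSFA3 (chromosome 5, 971142 to 974326, minus strand) changed little in comparison. It stood at 3.35, 3.41 and 3.22 CPM in controls, and at 5.51, 6.57 and 7.28 CPM after priming. Heat shock gave 4.27, 4.92 and 5.19 CPM, and primed heat shock 4.24, 3.24 and 4.04 CPM. Priming and heat shock libraries all lay above the controls, while primed heat shock overlapped the controls and lay just below heat shock. The log2 change was 0.96 ± 0.14 in priming (edgeR adjusted p = 2.86e-05) and 0.53 ± 0.13 in heat shock (edgeR adjusted p = 0.00391). Both calls depend on the scaling, since with no scaling factor the values were 0.10 (edgeR adjusted p = 0.598) and 0.04 (edgeR adjusted p = 0.868). Between primed and unprimed heat shock the difference was -0.32 ± 0.13 (edgeR adjusted p = 0.101), and between primed heat shock and control 0.20 ± 0.13 (edgeR adjusted p = 0.204). The end of the HSFA3 gene overlaps the opposite-strand locus AT5G03710.

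HSFA6B (chromosome 3, 8078789 to 8081059) had the lowest level of the members per length of its reference sequence in every group. Its reads numbered 36, 57 and 56 in controls, 83, 134 and 66 in priming, 22, 4 and 6 in heat shock and 7, 18 and 16 in primed heat shock. In CPM these were 0.272 to 0.312, 1.22 to 1.37, 0.0396 to 0.185 and 0.0776 to 0.164. Priming libraries lay above and both 43 °C groups below all controls, and the 43 °C groups overlapped each other. The rise in priming was 4.49-fold (log2 2.17 ± 0.37, edgeR adjusted p = 1.68e-04), and the fall in heat shock was 3.03-fold (log2 -1.60 ± 0.44, edgeR adjusted p = 0.00629). Without heat shock replicate 1 that fall was -2.63, and the fall of HSFA6B in heat shock against priming went from -3.77 to -4.78. In primed heat shock it stood 2.28-fold below control (log2 -1.19 ± 0.42, edgeR adjusted p = 0.0243). That call was lost without primed heat shock replicate 1 (log2 -0.97, edgeR adjusted p = 0.0921) or replicate 2 (log2 -1.23, edgeR adjusted p = 0.0545). Primed against unprimed heat shock gave 0.41 ± 0.49 (edgeR adjusted p = 0.614), but 1.43 without heat shock replicate 1 (edgeR adjusted p = 0.0420), the library with 22 reads.

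**Figure D3:**
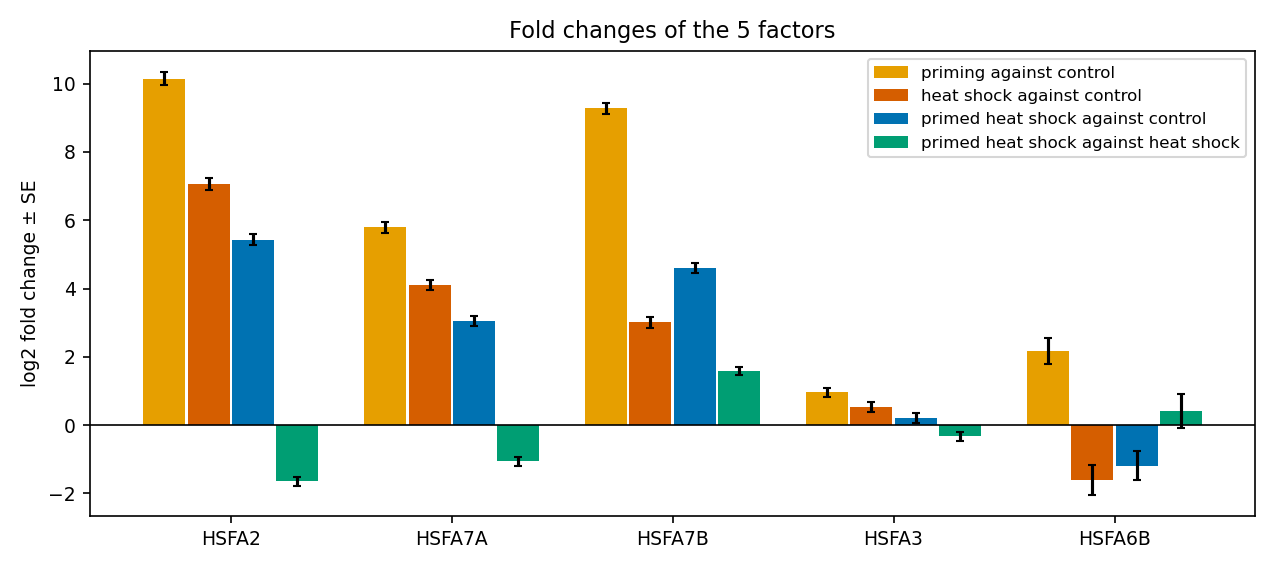
Fitted log2 fold change ± SE of each gene in 4 comparisons, each group with 3 libraries. HSFA2, HSFA7A and HSFA7B exceed 3 in each comparison with control, while HSFA3 stays below 1 and HSFA6B lies at 2.17 in priming and below 0 in both 43 °C groups.

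Over the 5 genes, 5 rose in priming against control, where 26.7% of all sequences tested rose and 27.1% fell. In heat shock against control 4 rose and 1 fell, with 27.9% of all sequences rising and 24.5% falling. In primed heat shock against control 3 rose and 1 fell, where 32.1% and 27.2% did so. In primed against unprimed heat shock 1 rose and 2 fell, beside 12.1% rising and 10.7% falling. Without heat shock replicate 1 the rising members here were 2. Both 43 °C groups were below priming for all 5 members, and none rose. In heat shock against priming 33.8% of sequences rose and 29.0% fell, and in primed heat shock against priming 34.2% rose and 28.6% fell. HSFA3 gave -0.43 ± 0.13 in the first of these (edgeR adjusted p = 0.0116), -0.34 without priming replicate 3 (edgeR adjusted p = 0.0565), -0.29 with upper-quartile factors (edgeR adjusted p = 0.0850) and -0.07 with no scaling factor (edgeR adjusted p = 0.761). In the second it gave -0.75 ± 0.14 (edgeR adjusted p = 2.10e-04) and -0.27 with no scaling factor (edgeR adjusted p = 0.190). Temperature and age differ together between the 43 °C groups and the 6-day groups and cannot be told apart, and the primed heat shock group also differs from the 6-day groups by its earlier heat.

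Levels of different genes were compared per length of the reference sequence, as CPM per kb, and ratios within a library are free of any scaling factor. The HSFA7A and HSFA7B entries have the length of the coding sequence alone, while those of the other members are longer than theirs. Reads that did not align were not counted, and their share at HSFA2, HSFA3, HSFA7A and HSFA7B differed between groups. The part of both in the ratios and shares was not tested. HSFA7A exceeded HSFA2 by 16.8 ± 0.423 times (mean ± SD, n = 3) in controls. In priming libraries the ratio was 0.818 ± 0.0449, so that HSFA2 was the more abundant. It was 2.14 ± 0.164 in heat shock and 3.24 ± 0.189 in primed heat shock. The ratio of HSFA2 to HSFA7B was 3.19 ± 0.220 at rest, 5.78 ± 0.563 in priming, 52.6 ± 1.52 in heat shock and 5.58 ± 0.443 in primed heat shock. Heat shock libraries, at 51.0, 52.7 and 54.0, thus stood well above primed heat shock libraries, at 5.07, 5.90 and 5.77 (exact two-sided permutation test, p = 0.1, the smallest that 3 against 3 allow). Both HSFA2 and HSFA7B were below HSFA3 in controls, at 0.416 ± 0.0346 and 0.131 ± 0.0196 of its level. After priming they exceeded HSFA3 by 246 ± 22.3 and 43.0 ± 7.53 times.

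The 21 heat shock factors together held 98.4 ± 4.80 CPM per kb in controls, 2697 ± 120 in priming, 536 ± 67.6 in heat shock and 356 ± 37.0 in primed heat shock. The 5 members supplied 21.3% ± 1.44 of this sum in controls, 85.3% ± 0.535 in priming, 80.8% ± 2.24 in heat shock and 54.5% ± 2.51 in primed heat shock. HSFA2 ranked 17 of 21 in controls with 1.03% of the sum, and rank 1 in priming with 42.7%. HSFA7A held 17.3% in controls and 54.2% in heat shock, where it ranked first, as it did in primed heat shock with 39.3%. HSFA7B went from rank 19 in controls to rank 4 in priming, then 14 in heat shock and 8 in primed heat shock. HSFB2A, a repressor of class B, held the largest share in controls with 19.2% and rank 2 in primed heat shock with 21.4%.

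**Figure D4:**
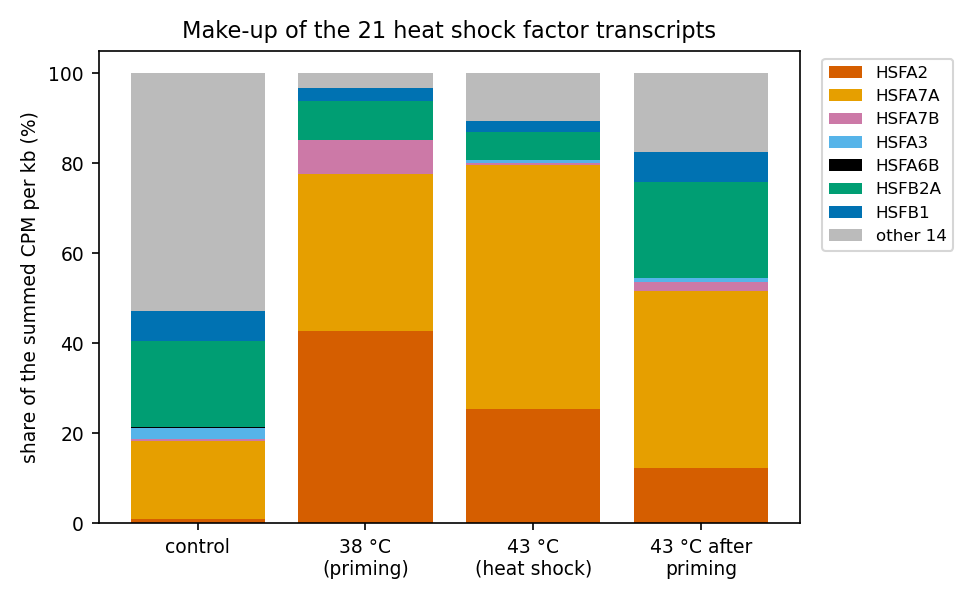
Mean share of each factor in the summed CPM per kb of the 21 heat shock factors, in percent, with 1 stacked bar per group of 3 libraries. The 5 members make up 21.3% at rest, 85.3% in priming, 80.8% in heat shock and 54.5% in primed heat shock.

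Of the 16 other heat shock factors 4 rose and 5 fell in priming, where 26.7% of all sequences rose and 27.1% fell, so both shares are near the background. The median log2 change was 0.04 for these 16 and 5.79 for the 5 members. HSFB2B (3.71 ± 0.11), HSFB1 (3.62) and HSFB2A (3.60), of the repressor class, and the activator HSFA1E (2.51) were the 4 that rose. Falling factors numbered 3 without priming replicate 1 or 2, 3 with only the libraries compared and 10 with no scaling factor. In heat shock against control 6 rose and 3 fell (2 and 7 with no scaling factor), beside 27.9% and 24.5% of all sequences, with the largest changes in HSFB4 (-2.13), HSFB2B (1.24), HSFB1 (1.08) and HSFB2A (0.79). In primed against unprimed heat shock 6 rose and 2 fell, beside 12.1% and 10.7% of all sequences. Falling factors numbered 0 to 2 when 1 library was left out, with 0 without heat shock replicate 1 or primed heat shock replicate 1 or 2 and 1 without control, priming or heat shock replicate 2. HSFA1E rose there by 3.00, more than any of the 5 members changed, from 1.99 to 2.62 CPM in heat shock to 16.9 to 19.3 CPM. HSFB2A (1.21), HSFB4 (0.82) and HSFB1 (0.76) rose less.

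Factors upstream of HSFA3 and of the abscisic acid branch, 10 in all, rose in 6 cases and fell in 1 after priming (3 and 5 with no scaling factor), beside 26.7% and 27.1% of all sequences. DREB2A, the dehydration factor that activates HSFA3, rose by 5.20 and its relatives DREB2B and DREB2C by 3.60 and 3.06, while NF-YA2, a subunit of a trimeric CCAAT-binding factor, fell by 1.34. Falling genes of this list numbered 2 without control replicate 3. DREB2A went from 13.0 to 15.3 CPM in controls to 473 to 595 CPM in priming, and stood at 76.4 to 97.3 CPM in heat shock and 46.5 to 62.0 CPM in primed heat shock. Its 4 groups had the order of HSFA2 and HSFA7A, whereas HSFA3 rose 1.94-fold at most. In primed against unprimed heat shock DREB2A (-0.77) and JUB1 (-0.99), a NAC factor that activates DREB2A, fell, and NF-YB3 (0.81) and DREB2B (0.66) rose. That comparison had 2 rising and 4 falling members of the list, beside 12.1% and 10.7% of all sequences. Rising ones numbered 1 without heat shock replicate 2 or 3 or primed heat shock replicate 1 or 2. Falling ones numbered 2 without heat shock replicate 3 or primed heat shock replicate 1 or 2, and with no scaling factor. In heat shock against control 4 rose and 1 fell, beside 27.9% and 24.5% of all sequences, with DREB2A at 2.62. Falling ones there numbered 0 without control replicate 1 or 2 or heat shock replicate 2 or 3, and 2 without heat shock replicate 1, and with no scaling factor 2 rose and 4 fell.

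Genes known as targets of HSFA2, 12 in the list, went against HSFA2 itself between the 43 °C groups. All 12 rose in primed against unprimed heat shock (median log2 3.70, and -0.003 over all sequences tested), while HSFA2 fell by 1.64. Of all sequences 12.1% rose and 10.7% fell there. HSP21, the small heat shock protein of plastids, rose by 7.77, from 3.37 to 4.46 CPM to 704 to 881 CPM. The ascorbate peroxidase APX2 rose by 7.30, and the small heat shock proteins HSP18.2 and HSP22.0 by 6.93 and 6.11. In priming all 12 rose as well (median 8.87), where 26.7% of all sequences rose and 27.1% fell. In heat shock against control 9 rose and 3 fell (median 3.26), beside 27.9% and 24.5% of all sequences. HSP17.6A (4.66), HSP101 (4.30), HSP17.6C (4.27) and APX2 (3.92) changed most in the latter. The 3 that fell, named after their values were seen, were the galactinol synthase GOLS2 (-1.70), the xyloglucan enzyme XTR6 (-0.98) and the inositol phosphate synthase MIPS2 (-0.48). Against priming, all 12 fell in heat shock, where 33.8% of all sequences rose and 29.0% fell. In primed heat shock against priming 3 rose and 8 fell, beside 34.2% and 28.6% of all sequences.

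Proteins that hold heat shock factors inactive or modify them formed a list of 10, of which 9 rose and 0 fell in priming by edgeR's test, none falling at an unadjusted p under 0.05, where 26.7% of all sequences rose and 27.1% fell. With no scaling factor 1 fell. ROF2, an immunophilin that binds Hsp90 and limits HSFA2 activity, rose by 8.19, the chaperones HSP90.1 and HSP90.2 by 6.91 and 5.32, and ROF1, which also binds HSFA2 through Hsp90, by 5.23. In primed against unprimed heat shock 3 rose and 2 fell, beside 12.1% and 10.7% of all sequences. HSP90.1 (1.25) and ROF2 (1.18) rose there, whereas the constitutive Hsp70 genes HSC70-1 and HSC70-3 fell by 1.09 each. In heat shock against control 6 rose and 2 fell, beside 27.9% and 24.5% of all sequences, with ROF2 at 2.80 and HSP90.1 at 2.77. Falling ones there numbered 1 without heat shock replicate 2 or 3, 1 with upper-quartile factors and 4 with no scaling factor. SIZ1, the SUMO ligase, was at 0.09 in priming and -0.14 in primed against unprimed heat shock, neither a call.

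Patterns most like each member were found by the root mean square difference of log2 CPM, centred on the control mean, over the 12 libraries, among 3617 nuclear genes with a symbol and at least 20 CPM in their highest group. For HSFA2 the nearest was the co-chaperone BAG6 (AT2G46240) at 1.16 log2 units, then HSP101 at 1.51, HSP17.4 (AT3G46230) at 1.54, PDX1.2 (AT3G16050) at 1.73 and HSP17.6A at 1.76. This nearest distance was larger than that of any other member, but HSFA2 also had the largest log2 rise in priming. Distances in log2 units can be larger where changes are larger, so they are not alike between members. BAG6 stood at 9.80, 4.93 and 6.24 over control in priming, heat shock and primed heat shock, where HSFA2 stood at 10.14, 7.05 and 5.40. HSFA2 was lower in primed than in unprimed heat shock, as was PDX1.2 (3.76 and 4.79), whereas BAG6, HSP101, HSP17.4 and HSP17.6A were higher. For HSFA7A they were DIP2 (AT5G03210) at 0.547, the co-chaperone Hop3 (AT4G12400) at 0.710, the coactivator MBF1C (AT3G24500) at 0.769, DREB2A at 1.004 and HSP90.1 at 1.01. DIP2, at 6.60, 4.27 and 2.89, kept the order of HSFA7A, and Hop3 and DREB2A were also lower in primed than in unprimed heat shock. MBF1C (3.21 and 2.83) and HSP90.1 (4.03 and 2.77) went the other way. For HSFA7B they were HSP101 (AT1G74310), the disaggregase, at 0.692, Hsp70b (AT1G16030) at 1.13, PDX1.2 at 1.15, HSP70T-2 (AT2G32120) at 1.18 and HSP90.1 at 1.19. Hsp70b, at 10.21, 3.49 and 6.46, was higher in primed than in unprimed heat shock, as were HSFA7B, HSP101, HSP70T-2 and HSP90.1, whereas PDX1.2 was lower. For HSFA3 the nearest was the isocitrate dehydrogenase subunit IDH-V (AT5G03290) at 0.161, followed by the splicing factor SR34 (AT1G02840), B73 (AT5G20990), AGT2 (AT4G39660) and ASP3 (AT5G11520) at 0.202 to 0.210. For HSFA6B it was BIP2 (AT5G42020), an Hsp70 of the endoplasmic reticulum, at 0.587, followed by AGP15 (AT5G11740), MYB102 (AT4G21440), AtLEA4-1 (AT1G32560) and LEA7 (AT1G52690) at 0.596 to 0.707. With the 4 group means in place of the 12 libraries, all 5 neighbours were kept for each member except HSFA3, which kept 1.

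Beyond the members, loci with a triple heat shock element in the 250 bases before their start were described in the same fit. Of 106 such loci 91 were tested. In priming 45 of them rose (49.5%), beside 28.0% of 22260 protein-coding loci, and 42 of 88 rose (47.7%) once HSFA2, HSFA7A and HSFA7B were left out. In heat shock against control 29 of the 91 rose (31.9%), and 26 of 88 (29.5%) without these members, beside 23.8% of protein-coding loci. In primed against unprimed heat shock 15 rose (16.5%) and 14 fell (15.4%), beside 2895 and 2667 of the 22260 protein-coding loci. Without the members 14 of 88 rose (15.9%) and 12 fell (13.6%) there. The element is thus present at many loci that did not rise.

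The files also list reads that did not align although their mate did, here taken as a share of all reads listed at an entry. In priming this share lay above every control for HSFA7A and HSFA7B, as at 6.52% of 15178 nuclear loci with at least 100 reads in every library, and below every control for HSFA2, as at 41.3% of them. In heat shock it lay above every control for HSFA2, HSFA3, HSFA7A and HSFA7B, as at 71.4% of these loci, and 0.639% lay below. In primed heat shock the same 4 members lay above, as did 68.7% of loci, while 0.744% lay below. HSFA7B is itself outside these loci, since its controls held only 32 to 55 aligned reads. HSFA7A had the largest mean share of the members in each heated group, at 13.2% to 18.8% per library, against 7.41% to 7.91% in controls.

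**Figure D5:**
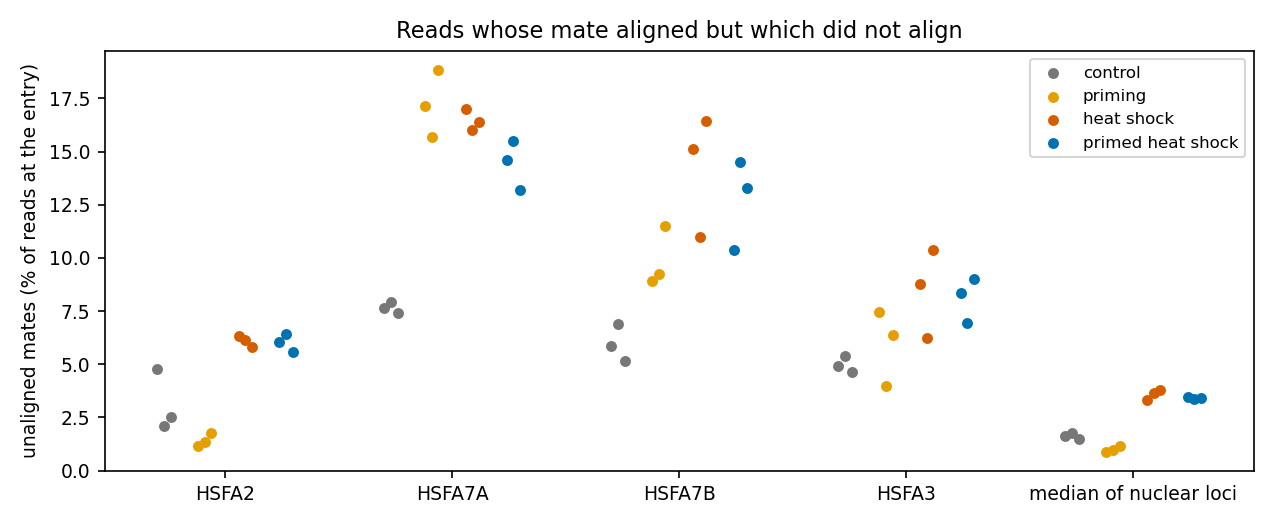
Share of unaligned mates in percent at the entries of 4 factors and as the median of nuclear loci, with points for libraries and colours for the 4 groups. HSFA7A lies at 13.2% to 18.8% in the heated groups, while the group means of the median of nuclear loci are 1.00% to 3.58%.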

How the data were processed

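The deposited files hold raw counts of reads for each of 87128 reference sequences, 1 file per library, laid out like SAMtools idxstats output, where both mates of a pair are counted. They also give a length and a count of reads that did not align while their mate did. Bowtie2, SAMtools, DESeq2 and build TAIR10 are named, per the submitters' processing notes. Their versions and roles, and any strand setting, are not given in the sources used here. Each reference locus has 1 model, so splice forms are not separated.

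Ribosomal RNA (15 loci) and unaligned reads were left out of library sizes. Counts were tested with edgeR 4.0.16 in R 4.3.3 (TMM, filterByExpr with its minimum count set to 10, robust quasi-likelihood fit of all 12 libraries by group, Benjamini-Hochberg adjustment over 26161 sequences). The test was also run on simulated counts with few changes, equally many up and down. That run does not check the scaling where many sequences change, as here. All 5 members passed the filter. The biological coefficient of variation was 0.143. SEs are the absolute log2 change divided by the square root of F. Alternatives were other scalings, no filter, DESeq2 1.42.0, the replicate number as a block, the compared libraries alone, ribosomal RNA kept, nuclear loci alone and each library left out.

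The members, gene lists and tests were chosen with earlier results of these data known. Text names the 5 members, from each list up to 4 called genes with the largest change, and the 5 nearest patterns per member (prior count of 2). Separate cultures are not stated for replicates, and p-values then measure only how these samples vary, which may be technical. Replicate numbers pair libraries by harvest date, per the labels; deviations of same-numbered libraries from their group means correlated by -0.08 to 0.13. Coordinates, start sites and bases are from RefSeq's TAIR10.1; no coordinate of the count files was used. HSFA7A and HSFA7B entries, of 819 and 849 bases, have the length of the coding sequence alone. The transcripts of HSFA2, HSFA6B, HSFA7A and HSFA7B share no 31-base word with another annotated transcript, and HSFA3 shares 2 of 2180. Tables and exact permutation tests used Python 3.11.15, pandas 2.3.3 and scipy 1.17.1.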

Additional observations from a re-analysis of the deposited data

Results flagged for a closer look

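The files also list, for each reference sequence, reads that did not align although their mate aligned there, a measurement used in no comparison of levels. It was looked at after the data were seen, as a percentage of all reads listed at the entry, and several values lay above all controls. For HSFA7A this share was 7.66% ± 0.250 (SD, n = 3) in controls, 17.2% ± 1.58 in priming, 16.5% ± 0.508 in heat shock and 14.4% ± 1.16 in primed heat shock. For HSFA7B it was 5.98% ± 0.867, 9.89% ± 1.39, 14.2% ± 2.84 and 12.7% ± 2.12 in the same order, the control value resting on 9 unaligned reads in all. HSFA2 had 3.14% ± 1.45 in controls, from 22 unaligned reads, 1.42% ± 0.322 in priming, 6.08% ± 0.268 in heat shock and 6.02% ± 0.437 in primed heat shock. HSFA3 had 4.99% ± 0.391 in controls, 5.95% ± 1.78 in priming, 8.47% ± 2.10 in heat shock and 8.11% ± 1.07 in primed heat shock. HSFA6B had too few reads for a share.

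For each group of a member that lay above every control the exact two-sided permutation test gave p = 0.1, the smallest that 3 libraries against 3 allow. The median over 15178 nuclear loci with at least 100 reads in every library moved too, from 1.64% ± 0.142 in controls to 1.00% ± 0.138 in priming, 3.58% ± 0.241 in heat shock and 3.41% ± 0.0538 in primed heat shock. Every heat shock library lay above every control at 71.4% of these loci, and every primed heat shock library at 68.7%, so a rise at 43 °C is near the background. In priming the share lay above all controls at 6.52% of loci, HSFA7A and HSFA7B showing the same, and below all controls at 41.3%, as HSFA2 did. HSFA7B, with only 32 to 55 aligned reads in controls, falls outside these loci. The reference entries of HSFA7A and HSFA7B cover the coding sequence alone, and the part of this in their shares was not tested.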

How the results depend on the processing

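Over 21 alternatives, 621 of 630 values of a member's log2 change kept their call, 8 were no longer past the threshold and 1 became so. All 9 concern HSFA3 or HSFA6B. A kept call need not keep its direction where neither value is past the threshold. HSFA3 in primed heat shock against control went from 0.20 to -0.17 with no scaling factor. HSFA2, HSFA7A and HSFA7B kept every call, with log2 changes of 9.29 to 10.19, 4.93 to 5.84 and 8.42 to 9.36 in priming and of -1.81 to -1.53, -1.18 to -0.93 and 1.46 to 1.70 in primed against unprimed heat shock. With the replicate number as a block all 30 calls were the same, and HSFA7B gave 1.59 in primed against unprimed heat shock. Leaving out 1 library moved the members rising in primed against unprimed heat shock between 1 and 2, and those falling in primed heat shock against control between 0 and 1. With no scaling factor all sequences rising and falling numbered 1244 and 18144 in priming (main 6990 and 7079), 3824 and 13300 in heat shock (7306 and 6399), and 4835 and 10990 in primed heat shock (8395 and 7124) against control. Falling ones were 1451 in primed against unprimed heat shock (2806), and 1851 without primed heat shock replicate 1. Against priming, falling ones were 2848 in heat shock (7599), and rising and falling ones 14074 and 2397 in primed heat shock (8960 and 7489). The counts behind HSFA6B, 4 to 22 reads at 43 °C, limit what can be said of it.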
